A study of Mus musculus with 8 samples.

Results

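Cytosolic ribosomal proteins build the small and large subunits of the ribosome outside the mitochondria, together with ribosomal RNA. Their genes are expressed in every cell, and their mRNAs begin with a run of pyrimidines through which the mTORC1 kinase raises their translation when a cell grows. Heart and skeletal muscle use a tissue form of one of them, Rpl3l, in place of the ubiquitous Rpl3, whose protein reaches toward the site where peptide bonds are made. Members were the genes whose single platform symbol begins with Rpl or Rps followed by a number, or is Rplp0, Rplp1, Rplp2 or Rpsa, without symbols marked -ps and without the S6 kinases. For each gene the brightest probe set was used. This gave 63 genes of 19933, of which 21 encode small subunit proteins, 30 large subunit proteins and 3 the proteins of the P stalk, the flexible arm that recruits translation factors. A further 8 are paralogs or retrogenes. The last, Rps19bp1, matches the letters of the rule but encodes a binding partner of Rps19 and no ribosomal protein.

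RNA of the left ventricle was measured on Affymetrix mouse gene 1.0 ST arrays, 1 array per heart, in 2 PlGF mice, 3 mice labelled PlGF/RGS4 and 3 control mice. PlGF mice carried a placental growth factor transgene that the activator tTA, driven by the αMHC promoter of cardiomyocytes, switched on when doxycycline was absent (Tet-OFF). PlGF/RGS4 mice were meant to express RGS4, a regulator of G protein signalling, beside PlGF. Control littermates carried only a responder or only the driver transgene, all were C57/Bl6 mice of 11 weeks, and the transgenes had been on for 6 weeks. The study compared hearts with angiogenesis and hypertrophy with hearts in which hypertrophy was blocked.

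The median intensity of the arrays ran from 111.1 to 115.15, and precision is limited by the number of arrays. PlGF replicate 1 stood apart over all genes, with a mean correlation of 0.974 with the arrays of the other groups, against 0.991 to 0.993 for the other arrays. Pgf, the gene of the growth factor, read 4136 and 917 units in PlGF hearts, 300.0, 229 and 211 in the hearts labelled PlGF/RGS4, and 211, 349 and 387 in control hearts, so it went against the PlGF/RGS4 label. Rgs4 read 235 and 195 units in PlGF hearts, 234, 187 and 229 in the hearts labelled PlGF/RGS4 and 209.5, 277 and 281.5 in control hearts, and was not higher under that label either. Xist, transcribed from the silenced X of females, was low in PlGF replicate 1, PlGF/RGS4 replicate 2 and control replicate 2. It read 26.9 units in PlGF replicate 1 and 2724 in PlGF replicate 2. A difference between these 2 hearts therefore cannot be told apart from one of sex. Of 12 cardiomyocyte markers 0 were called in PlGF against control, and 8 of 17 leukocyte markers were called higher. Of all genes 1.79% were called higher and 0.748% lower (limma adjusted p under 0.05). The summed leukocyte marker intensity was 20801 and 10018 in PlGF hearts (replicates 1 and 2), 4229 to 4890 in hearts labelled PlGF/RGS4 and 4902 to 5164 in control hearts, and the summed cardiomyocyte marker intensity was 126260 and 142810, 142960 to 143550 and 145310 to 147550 in the same groups. No marker was at 0. Fewer cells of a type and less RNA per cell cannot be told apart in such tissue samples, and the part of these markers in the results on ribosomal proteins was not tested.

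The cytosolic ribosomal protein genes stayed close to their control levels as a group, and Rpl3l lay far outside the rest. Between PlGF and control, 60 of the 63 genes differed by no more than 0.25 on the log2 scale. The exceptions were Rpl3l at −1.14, Rpl10l at −0.46 and Rplp1 at 0.31. The median of the 63 differences was 0.06, beside −0.03 over all genes, and 49 were above 0 and 14 below, where 58.7% of all genes were below 0. With each array centred on its own median the median of the members was 0.0037, and after quantile normalization 0.10. At an adjusted p under 0.05 over 19933 genes, limma called 0 members higher and 0 lower for PlGF against control, where 1.79% of all genes were called higher and 0.748% lower. At an unadjusted limma p under 0.05, 4 members were higher (6.35%, against 10.9% of all genes) and 3 lower (4.76%, against 11.7%). Both PlGF arrays lay above all 3 control arrays in 11 members (17.5%, against 14.3% of all genes) and below them in 4 (6.35%, against 19.5%).

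The same held beside the arrays labelled PlGF/RGS4. Against control, 0 members were called higher and 0 lower by limma in PlGF/RGS4, where 0.0151% of all genes were higher and 0% lower, and the median difference was 0.03, beside 0.00 over all genes. At an unadjusted limma p under 0.05, 1 member, Rpl39l, was higher (2.74% of all genes) and 1, Rpl10l, was lower (2.28% of all genes). The arrays did not overlap in 7 members on the higher side (11.1%, against 6.96% of all genes) and in 1 on the lower side (1.59%, against 5.85%). Between PlGF and PlGF/RGS4 the counts were also 0 and 0 (1.1% and 0.0853% of all genes by limma), with 0 members higher and 1 lower at an unadjusted limma p under 0.05 (8.95% and 10.6% of all genes). The lower one was Rpl3l. The 2 comparisons with control share their 3 control arrays.

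**Figure D1:**
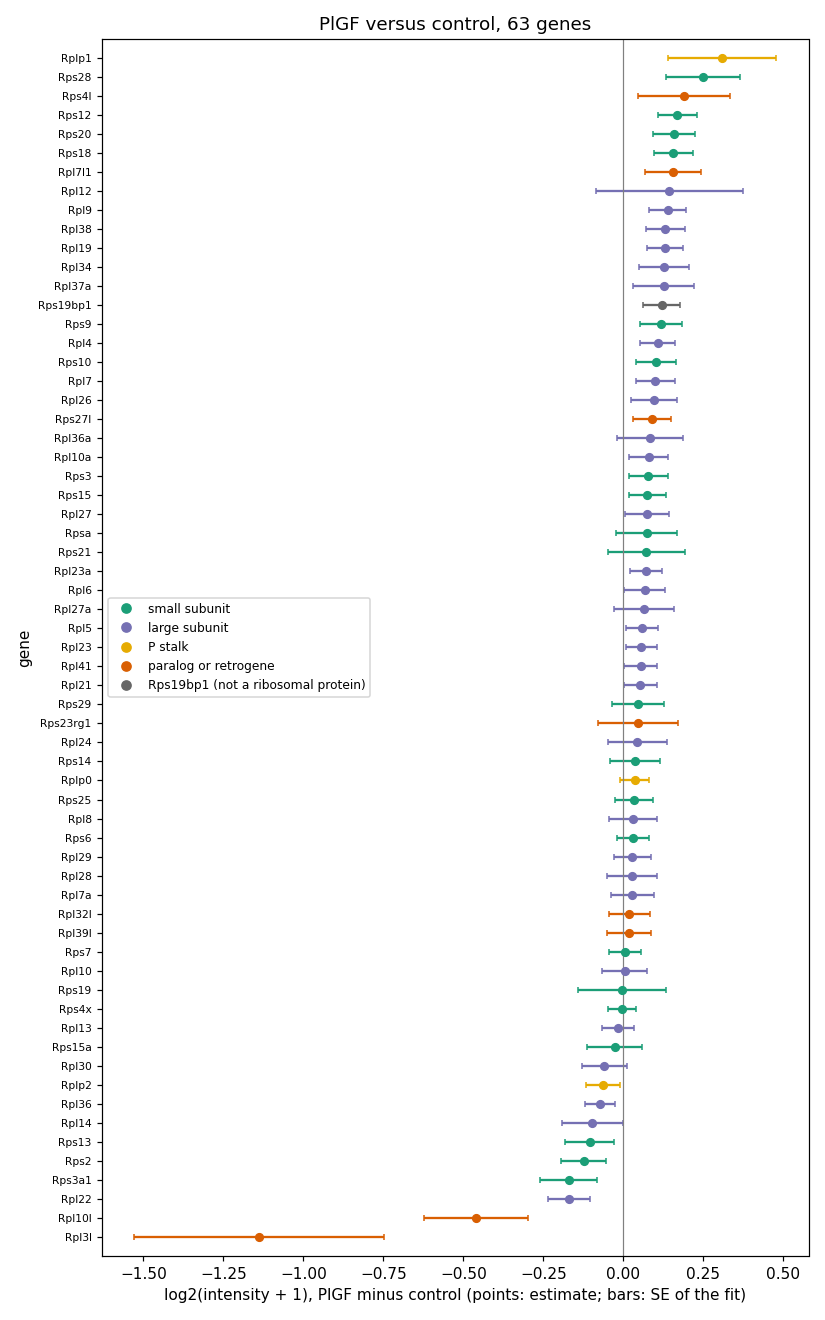
Difference between PlGF and control in log2(intensity + 1) for each of the 63 genes (points, coloured by role) with the standard error of the limma fit (bars). Rpl3l at −1.14 and Rpl10l at −0.46 lie below the rest, and 60 of the 63 points lie within 0.25 of 0.

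Rpl3l read 485 and 1498 units in the PlGF hearts, 1817, 1898 and 1791 in the hearts labelled PlGF/RGS4, and 1894, 1791 and 1952 in the control hearts. Both PlGF hearts lay below every other heart, and PlGF replicate 1 far below PlGF replicate 2, while the other 2 groups overlapped. The difference between PlGF and control was −1.14 ± 0.39 (SE) on the log2 scale (limma adjusted p = 0.147). An exact permutation test, two-sided, gave p = 0.1, the smallest that 2 arrays against 3 allow. Against PlGF/RGS4 it was −1.11 ± 0.39 (limma adjusted p = 0.197), and between PlGF/RGS4 and control −0.03 ± 0.35 (limma adjusted p = 0.998). Its size rested on 1 heart. Without PlGF replicate 1 the difference from control was −0.33 (limma adjusted p = 0.0902), and without PlGF replicate 2 it was −1.95 (limma adjusted p = 3.6e-05). In each of these fits the lone PlGF array was taken to vary like the other groups. Over the 12 cardiomyocyte markers the median log2 difference from the control mean was −0.17 and −0.01 in PlGF hearts, and PlGF replicate 1 was the lowest of the 8 hearts in 9 of the 12 (Myh6, Tnnt2, Tnni3, Myl2, Myl3, Ryr2, Atp2a2, Pln and Ttn). It was not the lowest in Actc1, Mybpc3 and Nppa, and its share of lowest readings over all genes was not counted. The part of these markers in the reading of Rpl3l was not tested.

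No probe set lists Rpl3 alone. The 7 that list it also list the predicted gene Gm5879. Rpl3-ps1, Ralgps2 and Syngr1 are listed too on 2 of them, the brightest included, and another 2 have identical values. Signal from these genes cannot be told apart on such probe sets. The brightest read 3988 and 2903 units in PlGF hearts, 2473, 2351 and 2311 in hearts labelled PlGF/RGS4, and 2691, 2286 and 2324 in control hearts. Both PlGF hearts were above all others, again with PlGF replicate 1 farther out. In a fit over all 28440 probe sets, where 1.48% were called higher, the difference between PlGF and control was 0.49 ± 0.13 (SE) with a limma adjusted p of 0.111, and between PlGF/RGS4 and control it was −0.03. All 7 probe sets had both PlGF arrays above the controls, with differences from 0.43 to 0.50 and limma adjusted p from 0.0934 to 0.131. Without PlGF replicate 1 the brightest differed by 0.26 (limma adjusted p = 0.358).

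In both PlGF hearts Rpl3l was thus below, and the Rpl3 probe sets above, all controls. Relative to the control mean, log2 of Rpl3l minus log2 of the brightest Rpl3 probe set was −2.67 and −0.58 in the PlGF hearts. It was −0.07, 0.06 and 0.00 in the hearts labelled PlGF/RGS4, and −0.14, 0.02 and 0.12 in the control hearts. The mean difference between PlGF and control was −1.63, a ratio of 0.324 of that in control (exact permutation test, p = 0.1, the smallest possible). Between PlGF and PlGF/RGS4 it was −1.62 (exact permutation p = 0.1), and between PlGF/RGS4 and control −0.0035 (exact permutation p = 1). Only the change of the ratio is read, since the 2 genes have different probes. Leukocytes, whose markers were higher in both PlGF hearts, also express Rpl3. The median log2 difference of 5 fibroblast markers from the control mean was 0.98 and 0.12 in PlGF hearts (replicates 1 and 2). That of 6 endothelial markers was 0.12 and 0.24. Between PlGF and control, 3 fibroblast markers were above 0 and 2 below, and limma called 0. Of the endothelial markers 3 were above 0 and 3 below. Limma called 1 higher, Cdh5 at 0.30 (limma adjusted p = 0.0374), and 0 lower, where 1.79% of all genes were called higher and 0.748% lower. Both PlGF hearts lay above all controls in Cdh5, Kdr (0.57) and Emcn (0.44). The 3 below 0 were Vwf at −0.74, Pecam1 at −0.03 and Tek at −0.02. The part of these cells in this ratio was not tested.

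**Figure D2:**
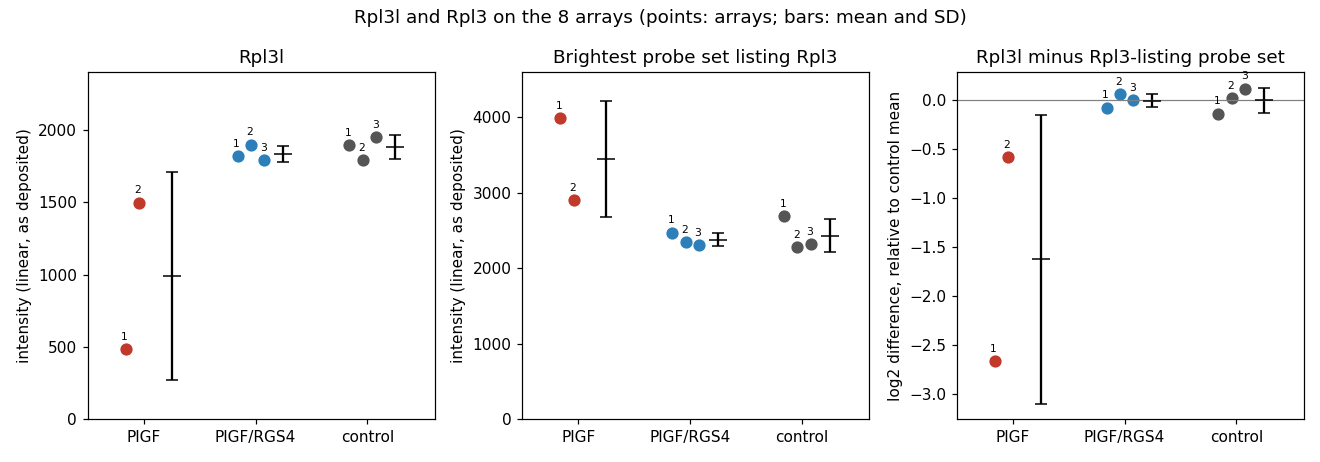
Intensity of Rpl3l (left) and of the brightest probe set listing Rpl3 among other symbols (middle), and the log2 difference between them relative to the control mean (right), for PlGF, PlGF/RGS4 and control hearts. Points are arrays with their replicate number, bars the mean and SD, and the 2 PlGF points sit at −2.67 and −0.58 in the right panel while the other 6 lie between −0.14 and 0.12.

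RefSeq promoters (GRCm38.p6, 250 bases before to 50 after the annotated start) were found for 51 members, among them 43 of the 54 ribosomal proteins proper, and not for Rpl3. The 30 bases around the start, 10 before and 20 after, are shown for Rpl3l, for members with low unadjusted p or arrays apart in PlGF, and for Rps6, the brightest member and a target of the S6 kinases. Capitals mark the longest unbroken run of C and T.
Rpl3l (chr17:24727816-24727845, plus strand): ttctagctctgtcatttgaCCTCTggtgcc
Rpl38 (chr11:114668570-114668599, plus strand): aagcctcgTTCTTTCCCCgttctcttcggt
Rps18 (chr17:33955646-33955675, minus strand): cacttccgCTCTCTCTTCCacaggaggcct
Rps12 (chr10:23787190-23787219, minus strand): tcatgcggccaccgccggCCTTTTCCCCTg
Rpl9 (chr5:65391412-65391441, minus strand): gggCCCTgacggattacaagaacgtgatga
Rps6 (chr4:86857348-86857377, minus strand): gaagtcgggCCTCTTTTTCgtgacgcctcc

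For each gene a single annotated start is shown. Within the bases shown, the run was 10 or 11 bases long in Rpl38, Rps18, Rps12 and Rps6, and 5 and 4 bases in Rpl3l and Rpl9. On the coding strand, between 20 bases before and 40 after a start, CTCTTT was found in 11 of the 43 ribosomal proteins (25.6%) and in 2.32% of 17491 coding genes, and CTTTCC, which may overlap it, in 8 (18.6%) and 3.08%. In the 250 bases before the start, on both strands, CCGGAA, the core bound by ETS factors such as Gabpa, was found in 19 of the 43 (44.2%) and in 16.9% of coding genes. TATAAA was found in 2 (4.65%), against 13.7%. CANNTG, the letters of an E-box, was found in 21 (48.8%), against 66.3%. These shares describe the windows of annotated starts only. The window for CTCTTT is wider than the bases shown, and any annotated start of a gene counted. Rpl9 was among the 11 genes with CTCTTT, although the bases shown for it do not hold it.

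The 250 bases before the start of Rpl3l held 0 matches of CCGGAA and 3 of CANNTG, all shown in capitals, and those of Rpl38 held 1 match of CCGGAA, shown in capitals.
Rpl3l (chr17:24727576-24727825, plus strand): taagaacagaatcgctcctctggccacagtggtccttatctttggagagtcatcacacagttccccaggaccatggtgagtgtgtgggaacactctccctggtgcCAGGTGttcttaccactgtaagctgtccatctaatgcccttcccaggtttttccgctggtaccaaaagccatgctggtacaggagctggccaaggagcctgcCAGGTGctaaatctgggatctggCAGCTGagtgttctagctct
Rpl38 (chr11:114668330-114668579, plus strand): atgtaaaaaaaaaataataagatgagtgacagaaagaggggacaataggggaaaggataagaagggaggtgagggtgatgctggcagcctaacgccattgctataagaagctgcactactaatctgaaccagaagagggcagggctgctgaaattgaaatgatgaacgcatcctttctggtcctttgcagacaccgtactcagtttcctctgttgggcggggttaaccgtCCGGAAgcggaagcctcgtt

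Of the 21 small subunit genes, 15 were above 0 and 6 below in PlGF against control, with a median of 0.05 and a range from −0.17 to 0.25. Of all genes, 58.7% were below 0. Rps12 read 1313 and 1249 units in PlGF hearts, 1198, 1180 and 1180 in hearts labelled PlGF/RGS4, and 1180, 1065 and 1180 in control hearts. Both PlGF hearts were above all others, by 0.17 ± 0.06 (SE) on the log2 scale against control (limma adjusted p = 0.166). Rps12 has 14 probe sets, all of them above 0 in this comparison. Probe sets of a gene were read on the same arrays, so here and for other genes their agreement adds no replication. Rps12 also shows that the deposited values repeat between arrays, here 1179.7 in 4 of them, as the values of 20 members did in at least 2 arrays.

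Rps18 and Rps20, proteins of the head of the small subunit, gave like values. Rps18 read 3144 and 2944 units in PlGF hearts, 2969, 2771 and 2837 in hearts labelled PlGF/RGS4, and 2858, 2676 and 2660 in control hearts, a difference of 0.16 ± 0.06 (SE) between PlGF and control (limma adjusted p = 0.183). Rps20 read 4910 and 4310 units in PlGF hearts, 4411, 4354 and 4159 in hearts labelled PlGF/RGS4, and 4134, 4084 and 4160 in control hearts. In both genes the PlGF hearts lay above the controls but overlapped the hearts labelled PlGF/RGS4. The difference for Rps20 was 0.16 ± 0.07 (SE) against control (limma adjusted p = 0.212), and 0.06 without PlGF replicate 1.

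Rps28 and Rps3a1, named after their values were seen, lay at the ends of the small subunit genes. Rps28 read 1990 and 1564 units in PlGF hearts, 1636, 1588 and 1577 in hearts labelled PlGF/RGS4, and 1553, 1326 and 1589 in control hearts. Rps3a1 read 380.0 and 453 units in PlGF hearts, 496, 453 and 457 in hearts labelled PlGF/RGS4, and 454, 452 and 497 in control hearts. PlGF replicate 1 was the highest heart for Rps28, with control replicate 2 the lowest, and it was the lowest heart for Rps3a1, where the others overlapped. The differences from control were 0.25 ± 0.12 (SE) for Rps28 (limma adjusted p = 0.251) and −0.17 ± 0.09 for Rps3a1 (limma adjusted p = 0.297). Without PlGF replicate 1 they were 0.08 and −0.04.

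Rps9 read 1740 and 1813 units in PlGF hearts, 1778, 1759 and 1778 in hearts labelled PlGF/RGS4, and 1740, 1522 and 1657 in control hearts. It had the lowest unadjusted p among the members whose PlGF/RGS4 arrays lay above all controls, at 0.11 ± 0.06 (SE) (limma adjusted p = 0.995). Rps2 read 7655 and 8595 units in PlGF hearts, 9170, 8709 and 8715 in hearts labelled PlGF/RGS4, and 8653, 8551 and 9345 in control hearts. Like Rpl3l and Rpl36, it had PlGF arrays below all those of PlGF/RGS4, at −0.13 ± 0.07 (limma adjusted p = 0.342). Rps25, which some viral mRNAs need to start translation without a cap, read 3105 and 3181 units in PlGF hearts, 3056, 2990 and 2919 in hearts labelled PlGF/RGS4, and 3240, 2903 and 3089 in control hearts. Its PlGF hearts were above those labelled PlGF/RGS4 and inside the control range.

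Rps6, the small subunit protein phosphorylated by the S6 kinases downstream of mTORC1, read 10369 and 11031 units in PlGF hearts, 10953, 10616 and 10765 in hearts labelled PlGF/RGS4, and 10323, 10475 and 10638 in control hearts. The groups overlapped, and the difference between PlGF and control was 0.03 ± 0.05 (SE) (limma adjusted p = 0.755) and below 0 with median centring. The arrays measure its RNA and say nothing of its phosphorylation.

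Of the 30 large subunit genes, 25 were above 0 and 5 below in PlGF against control, with a median of 0.06 and a range from −0.17 to 0.14. Of all genes, 58.7% were below 0. Rpl9 read 4233 and 4253 units in PlGF hearts, 4020, 3826 and 4041 in hearts labelled PlGF/RGS4, and 4074, 3681 and 3824 in control hearts. Rpl19, which reaches across to the small subunit, read 6622 and 6420 units in PlGF hearts, 6105, 5799 and 6032 in hearts labelled PlGF/RGS4, and 6029, 5679 and 6196 in control hearts. Both PlGF hearts were above all others in each gene, by 0.14 ± 0.06 (SE) against control for Rpl9 (limma adjusted p = 0.220) and 0.13 ± 0.06 for Rpl19 (limma adjusted p = 0.231). All 8 probe sets of Rpl9 and all 7 of Rpl19 were above 0 in this comparison.

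Rpl38, which in mice is needed for the translation of some Hox mRNAs, read 5703 and 5552 units in PlGF hearts, 5336, 5448 and 5498 in hearts labelled PlGF/RGS4, and 5284, 4797 and 5363 in control hearts. Rpl4, whose extension lines the tunnel through which the new protein leaves, read 1821 and 1656 units in PlGF hearts, 1642, 1602 and 1596 in hearts labelled PlGF/RGS4, and 1616, 1595 and 1623 in control hearts. Both genes had their PlGF hearts above all others, with differences from control of 0.13 ± 0.06 (SE) for Rpl38 (limma adjusted p = 0.254) and 0.11 ± 0.05 for Rpl4 (limma adjusted p = 0.287). The difference was 0.08 for Rpl38 without control replicate 2 and 0.04 for Rpl4 without PlGF replicate 1.

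On the lower side, Rpl22, which in mice is needed for the development of αβ T cells, read 334 and 362 units in PlGF hearts, 389, 386 and 357 in hearts labelled PlGF/RGS4, and 407, 378 and 391 in control hearts. The difference between PlGF and control was −0.17 ± 0.07 (SE) (limma adjusted p = 0.181), and −0.11 without PlGF replicate 1, and the PlGF hearts overlapped those labelled PlGF/RGS4. Rpl36 read 3661 and 3549 units in PlGF hearts, 3773, 3894 and 3882 in hearts labelled PlGF/RGS4, and 3862, 3715 and 3804 in control hearts. Both PlGF hearts were below all others, at −0.07 ± 0.05 (SE) against control (limma adjusted p = 0.389), a difference that crossed to just above 0 after quantile normalization, and as deposited none of its 9 probe sets was above 0.

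The large subunit members whose PlGF/RGS4 arrays lay above all controls were Rpl23, Rpl7, Rpl27 and Rpl6, with differences of 0.07, 0.07, 0.06 and 0.03 on the log2 scale and limma adjusted p from 0.995 to 0.998. Rpl23 read 3256 and 3215 units in PlGF hearts, 3338, 3223 and 3251 in hearts labelled PlGF/RGS4, and 3215, 3071 and 3053 in control hearts. PlGF and PlGF/RGS4 overlapped in each of these genes. Rpl21, Rpl37a and Rpl26, the last a protein near the exit of the tunnel, had PlGF arrays above those of PlGF/RGS4 that overlapped the controls, at 0.08, 0.13 and 0.09 on the log2 scale against PlGF/RGS4 (limma adjusted p = 0.417, 0.456 and 0.523).

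**Figure D3:**
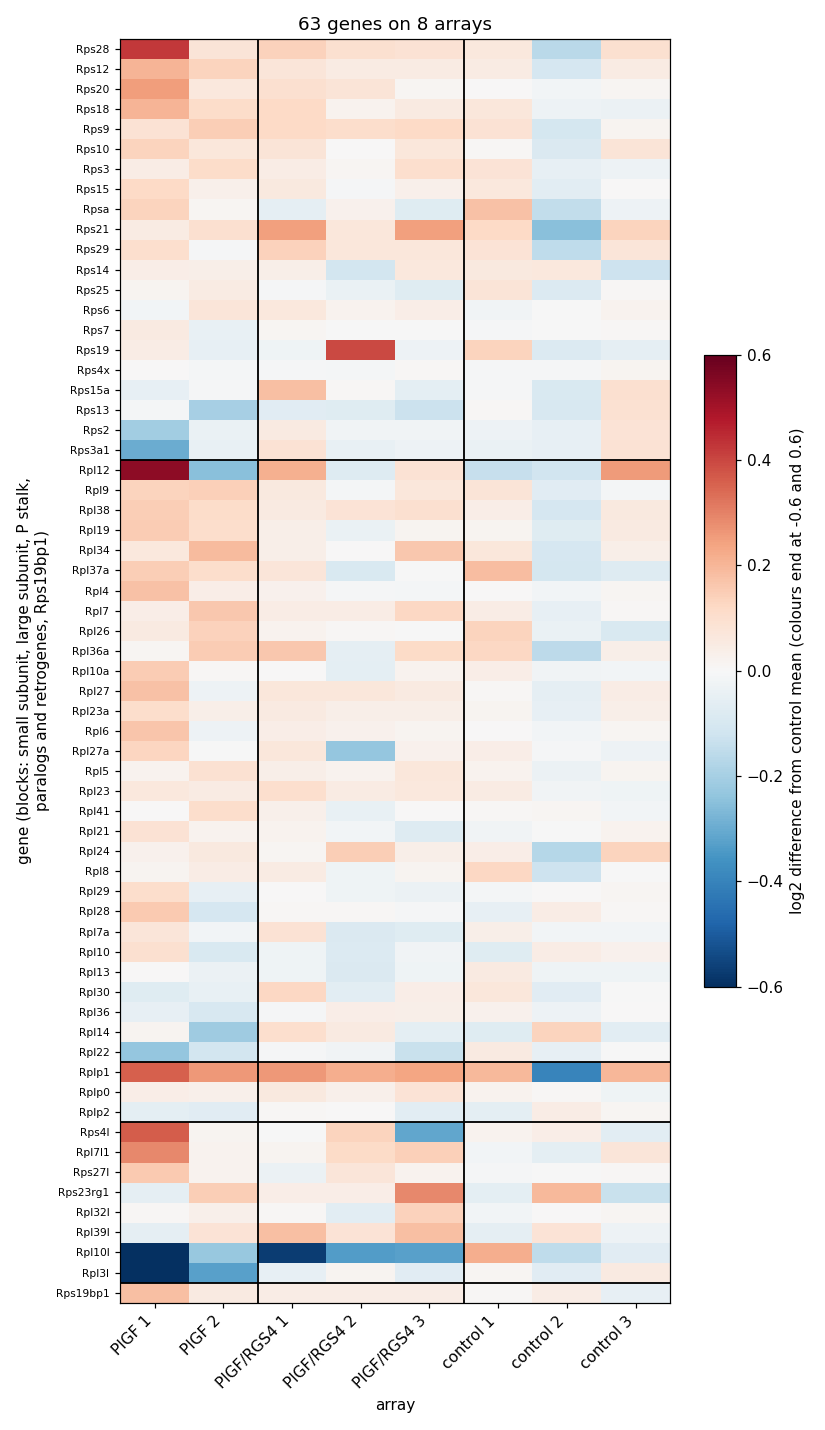
Log2 difference of each of the 63 genes (rows, in blocks by role) from its control mean on each of the 8 arrays (columns, PlGF, PlGF/RGS4 and control from left to right). Most cells are pale, Rpl3l and Rpl10l are dark blue in PlGF replicate 1, Rpl10l also in PlGF/RGS4 replicate 1, and Rplp1 in control replicate 2. The strongest red cells are Rpl12 (0.54) and Rps28 (0.42) in PlGF replicate 1 and Rps19 (0.40) in PlGF/RGS4 replicate 2.

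In the P stalk, Rplp1 read 6534 and 6105 units in PlGF hearts, 6116, 5934 and 5999 in hearts labelled PlGF/RGS4, and 5827, 3880 and 5863 in control hearts. Control replicate 2 stood far below the other 7 hearts. The difference between PlGF and control was 0.31 ± 0.17 (SE) (limma adjusted p = 0.317), and 0.11 without control replicate 2 (limma adjusted p = 0.374). That between PlGF/RGS4 and control was 0.24 ± 0.15 (limma adjusted p = 0.995). The dimmer of the 2 Rplp1 probe sets differed by 0.13 between PlGF and control. Rplp0, which anchors the stalk, read 9351 and 9290 units in PlGF hearts, 9459, 9290 and 9640 in hearts labelled PlGF/RGS4, and 9219, 9145 and 8930 in control hearts. Both PlGF and PlGF/RGS4 were above all controls, by 0.04 ± 0.05 (SE) in PlGF (limma adjusted p = 0.681), a difference that fell below 0 with median centring, and by 0.06 ± 0.04 in PlGF/RGS4 (limma adjusted p = 0.995). Rplp2, the partner of Rplp1, differed by −0.06 ± 0.05 between PlGF and control (limma adjusted p = 0.509).

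Of the 8 paralogs and retrogenes, Rpl10l and Rpl3l were below 0 in PlGF against control and 6 were above, where 58.7% of all genes were below 0. Rpl10l, a retrocopy of Rpl10 that serves male meiosis in mice, read 63.9 and 88.7 units in PlGF hearts, 69.9, 82.4 and 82.8 in hearts labelled PlGF/RGS4, and 121, 93.6 and 99.3 in control hearts. All 5 hearts labelled PlGF or PlGF/RGS4 lay below all 3 controls, and these 2 groups overlapped. The readings of Rpl10l were dim, below the median intensity of each array except in control replicate 1. The differences from control were −0.46 ± 0.16 (SE) in PlGF (limma adjusted p = 0.156) and −0.41 ± 0.15 in PlGF/RGS4 (limma adjusted p = 0.945), and −0.23 in PlGF without PlGF replicate 1. Its parent gene Rpl10 differed by 0.00 ± 0.07 between PlGF and control (limma adjusted p = 0.984).

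Rps27l, a p53-induced paralog of Rps27, read 2254 and 2047 units in PlGF hearts, 1970, 2123 and 2047 in hearts labelled PlGF/RGS4, and 2010, 2018 and 2030 in control hearts. Rpl7l1, a paralog of Rpl7, read 1709 and 1417 units in PlGF hearts, 1416, 1516 and 1542 in hearts labelled PlGF/RGS4, and 1383, 1344 and 1470 in control hearts. Only Rps27l had its PlGF hearts above all controls, at 0.09 ± 0.06 (SE) (limma adjusted p = 0.405), against 0.15 ± 0.09 for Rpl7l1 (limma adjusted p = 0.336), and without PlGF replicate 1 both differed by 0.02. Rpl39l, a testis form of Rpl39, read 20.2 and 22.3 units in PlGF hearts, 23.9, 22.3 and 23.9 in hearts labelled PlGF/RGS4, and 20.2, 22.3 and 20.5 in control hearts. It was the dimmest member, its readings repeat between groups, and PlGF/RGS4 differed from control by 0.15 ± 0.06 (limma adjusted p = 0.977). Rps4l, a transcribed pseudogene in RefSeq, and Rps23rg1, a retrogene of Rps23, differed by 0.19 ± 0.14 and 0.05 ± 0.12 between PlGF and control (limma adjusted p = 0.463 and 0.855), with overlapping groups, and Rps4l by 0.02 without PlGF replicate 1. Rps19bp1, which is no ribosomal protein, read 350 and 320 units in PlGF hearts, 318 in each of the 3 hearts labelled PlGF/RGS4, and 310, 318 and 297.5 in control hearts (0.12 ± 0.06, limma adjusted p = 0.261, and 0.06 without PlGF replicate 1).

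Members varied more from gene to gene in PlGF replicate 1 than elsewhere. The SD over members of the log2 difference from the control mean was 0.31 in that array, and 0.17 there without Rpl3l, against 0.07 to 0.11 in the other 7. The median over members was 0.06 and 0.03 in PlGF hearts, 0.04, 0.01 and 0.02 in hearts labelled PlGF/RGS4, and 0.02, −0.05 and 0.01 in control hearts. Control replicate 2 was the lowest, with 13 of 63 members above the control mean, against 50 and 39 in PlGF hearts, 50, 36 and 40 in hearts labelled PlGF/RGS4 and 45 and 39 in the other control hearts. Without PlGF replicate 1 the median difference between PlGF and control was 0.03 and 0 members were called by limma in either direction. Without PlGF replicate 2, 6 of the 63 were called higher and 3 lower by limma, where 14.1% of all genes were called higher and 15.6% lower. The higher ones were Rps28 at 0.42, Rpl7l1 at 0.29, Rps20 at 0.25, Rps19bp1 at 0.18, Rpl4 at 0.18 and Rpl6 at 0.16, and the lower ones Rpl3l at −1.95, Rpl10l at −0.69 and Rps3a1 at −0.30 (limma adjusted p from 3.6e-05 to 0.0462). These calls set 1 heart against 3, and that heart was the one that stood apart over all genes.

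A further 20 ribosomal protein symbols, Rpl3 among them, appear only on probe sets that list other symbols too. Over the 239 probe sets that list such a symbol with others, the median difference between PlGF and control was 0.06, with 189 above 0 and 50 below, and 0 were called in either direction by limma. Of all 28440 probe sets, 11926 were above 0 and 16511 below, and limma called 422 higher and 157 lower. Many of these genes have processed copies in the genome, and signal from a gene and from its copies cannot be told apart on such probe sets. Of the 63 members, 39 have several probe sets with 1 symbol, and whether these also read copies was not tested.

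The other genes of the pathway were taken from lists. In PlGF against control, limma called 1.79% of all genes higher and 0.748% lower, and their median was −0.03. Of 15 genes of RNA polymerase I and its factors, which transcribe ribosomal RNA, 0 were called higher and 1 lower in this comparison, with a median of −0.06. The lower one was Taf1a, a subunit of the selectivity factor that brings the polymerase to its promoter, which read 337 and 445.5 units in PlGF hearts, 635, 593 and 618 in hearts labelled PlGF/RGS4, and 693, 771 and 731 in control hearts. The groups did not overlap, at −0.91 ± 0.11 (SE) against control (limma adjusted p = 0.0178) and −0.67 ± 0.11 against PlGF/RGS4 (limma adjusted p = 0.0454). Of 46 ribosome assembly factors, limma called 0 higher and 1 lower, and their median was 0.03. The called one was Rrs1, which brings the 5S particle into the large subunit, at 92.0 and 96.2 units in PlGF hearts, 117, 134 and 117 in hearts labelled PlGF/RGS4 and 150, 121 and 147 in control hearts (−0.55 ± 0.11, limma adjusted p = 0.0459).

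Of 25 genes of mTORC1 signalling and the S6 kinases, limma called 0 higher and 1 lower in PlGF against control (1.79% and 0.748% of all genes). Their median was −0.06. The lower one was Ddit4, a stress-induced inhibitor of mTORC1, which read 221 and 273 units in PlGF hearts, 707.5, 442 and 529.5 in hearts labelled PlGF/RGS4, and 813.5, 586 and 960 in control hearts (−1.64 ± 0.25, SE, limma adjusted p = 0.0263). At an unadjusted limma p under 0.05, 0 of the 25 were higher and 6 lower (10.9% and 11.7% of all genes). Both PlGF arrays lay above all controls in 1 gene and below them in 11 (14.3% and 19.5% of all genes). Among the lower ones were Sesn1 at −0.87 ± 0.18 (limma adjusted p = 0.0579) and Deptor at −0.34 ± 0.10 (limma adjusted p = 0.120). Of 21 initiation factors and of 18 elongation and ribosome-associated factors, 0 were called in either direction by limma. At an unadjusted limma p under 0.05, 0 of the 21 were higher and 4 lower. Of the 18, 2 were higher and 2 lower (10.9% and 11.7% of all genes). The lower 2 were Eef1d at −0.22 ± 0.05 (limma adjusted p = 0.0758) and Naca at −0.21 ± 0.05 (limma adjusted p = 0.0876). Each had its PlGF hearts below all controls. The higher 2 were Eef1a1 and Fau, the latter at 0.21 ± 0.08 (limma adjusted p = 0.181). Eef1a1, which delivers aminoacyl-tRNA, read 9575 and 6684 units in PlGF hearts, 5743, 5540 and 5804 in hearts labelled PlGF/RGS4, and 5806, 6067 and 5588 in control hearts, again with PlGF replicate 1 highest and PlGF replicate 2 next (0.46 ± 0.13, limma adjusted p = 0.107). Of 12 genes for Myc, its partners and other transcription factors of ribosomal genes, 0 were called. At an unadjusted limma p under 0.05, 0 were higher and 2 lower (10.9% and 11.7% of all genes). These were Mxi1 at −0.39 ± 0.11 (limma adjusted p = 0.0953) and Gabpa at −0.21 ± 0.07 (limma adjusted p = 0.155). In both genes the PlGF hearts lay below all controls. Myc read 307 and 122 units in PlGF hearts, 133, 108 and 100.3 in hearts labelled PlGF/RGS4, and 116, 115 and 108 in control hearts, so that PlGF replicate 1 alone was high (0.77 ± 0.33, limma adjusted p = 0.227).

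The mitochondrial ribosomal proteins, which build the separate ribosome of that organelle, were mostly below 0. Of 77 genes, limma called 0 higher and 6 lower in PlGF against control (0.748% of all genes were called lower), with a median of −0.20, and 68 were below 0, as were 58.7% of all genes. Their difference from the cytosolic members was not tested. Mrpl4, for example, read 1233 and 1260 units in PlGF hearts, 1596, 1630 and 1584 in hearts labelled PlGF/RGS4, and 1596, 1704 and 1728 in control hearts (−0.43 ± 0.05, SE, limma adjusted p = 0.0178). The median of these genes was −0.22 and −0.13 in the 2 PlGF hearts, and between −0.05 and 0.03 in the other 6.

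**Figure D4:**
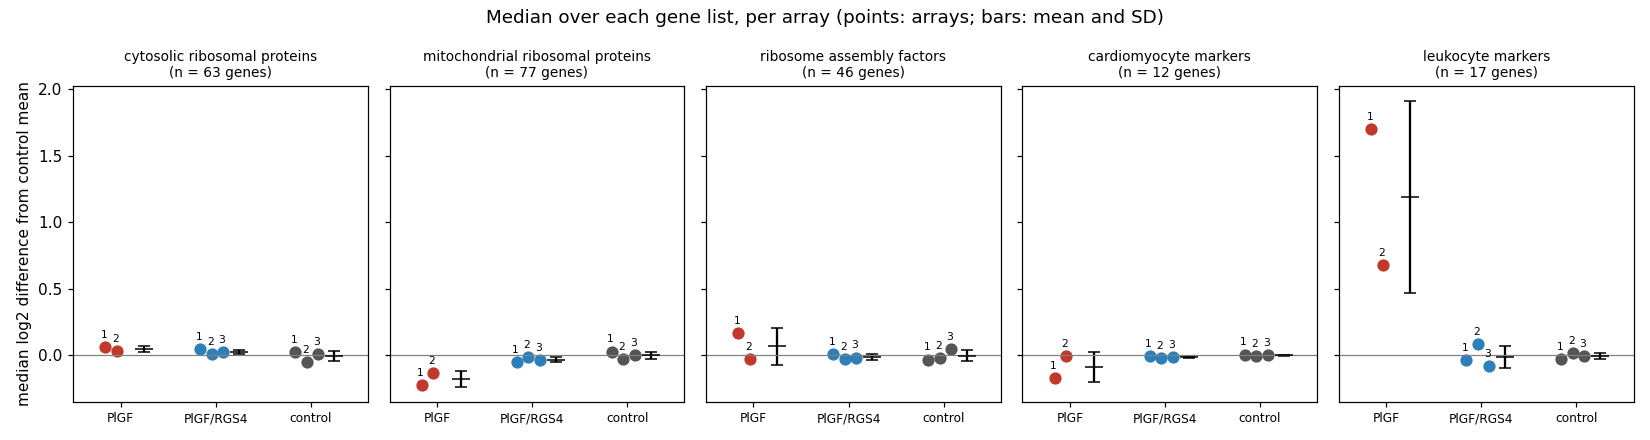
Median log2 difference from the control mean over each gene list, on each array of PlGF, PlGF/RGS4 and control (points with replicate number, bars the mean and SD of the arrays). The cytosolic ribosomal proteins lie between −0.05 and 0.06 in all 8 arrays, the mitochondrial ones at −0.22 and −0.13 in PlGF, and the leukocyte markers at 1.70 and 0.68 in PlGF.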

How the data were processed

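Left ventricular RNA was hybridised to 8 arrays, and the authors made the deposited linear intensity values with MAS 5.0 and global scaling, as the methods and the submitters' processing notes state. The genome build was not given in the sources used here. Of 28440 probe sets, 21780 carried 1 symbol on the platform annotation, 1618 several and 5042 none here. Several probe sets of a gene were reduced to the brightest, which gave 19933 genes, and all 63 members matched RefSeq by gene identifier. Of the probe sets with a mean over 1000, 25.3% had equal values in at least 2 arrays, and the step behind these repeats was not given in the sources used here, so the scale between arrays is taken as deposited. Levels of different genes were not compared.

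Values were taken as log2 of intensity plus 1, which understates changes of dim genes. The 3 comparisons came from a single limma 3.58.1 model (R 4.3.3) of 3 group means over the 8 arrays, with p-values adjusted over 19933 genes by Benjamini-Hochberg and called under 0.05. Single values had two-sided exact permutation tests, which cannot give a p under 0.1 here. The labels call the arrays biological replicates. Rpl3 was tested in a fit over all probe sets, chosen after the data were seen. The members, lists and tests were chosen with earlier results of these data known. Named were Rpl3l and Rpl3, members called in any comparison, per comparison and direction the 10 members of smallest unadjusted p among those whose arrays did not overlap, the paralogs, the 3 brightest and 3 dimmest members, and up to 4 genes of each list, of which the text gives those the results turn on. Alternatives were quantile normalization, median centring, a filter on dim genes, array weights, every probe set tested, a robust prior with trend, pairwise fits, the methods' t-test, a replicate block, a pseudocount of 16 and each array left out. No column was left out. Promoter sequences came from RefSeq (GRCm38.p6); where a gene has several starts, a motif in any of them counted. The fit was tested on simulated data.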

Additional observations from a re-analysis of the deposited data

How the results depend on the processing

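Except without PlGF replicate 2, 0 members were called in any comparison under the alternatives run. The median difference of the members between PlGF and control was 0.10 after quantile normalization and 0.0037 after centring each array on its median. That between PlGF and PlGF/RGS4 was −0.016 after the same centring. The size of the small median thus depended on the scaling, and between PlGF and PlGF/RGS4 its sign did too. Leaving out each array in turn, 0 to 6 members were called higher and 0 to 3 lower between PlGF and control, and 0 to 2 in each direction between PlGF and PlGF/RGS4, always 0 except without PlGF replicate 2. Rpl3l ran from −1.95 to −0.33 against control (limma adjusted p from 3.6e-05 to 0.283) and from −1.92 to −0.29 against PlGF/RGS4 (4.02e-05 to 0.371). The brightest Rpl3 probe set ran from 0.26 to 0.72 against control (limma adjusted p from 0.00393 to 0.358) and from 0.29 to 0.75 against PlGF/RGS4 (0.00352 to 0.408). The cause of these shifts was not tested. Deviations from the group mean correlated from −0.217 to 0.296 between same-numbered arrays. The 2 PlGF arrays deviate by equal and opposite amounts, so their correlations cannot show pairing. Between PlGF/RGS4 and control the same-numbered correlations were 0.0756, 0.296 and 0.101, and the others ran from −0.235 to 0.159. The check could not decide whether the numbers mark pairs, and they were not taken as pairs. The highest correlation, 0.296, was between PlGF/RGS4 replicate 2 and control replicate 2, both low in Xist. Sex was not part of the model. With the replicate block the median was 0.06, Rpl3l stood at −1.13 (limma adjusted p = 0.228) and no call changed. At an unadjusted p under 0.05, the methods' t-test gave 0 members higher and 0 lower between PlGF and control, 1 and 1 between PlGF/RGS4 and control, and 2 and 1 between PlGF and PlGF/RGS4, and 0 after Benjamini-Hochberg adjustment. Signals near the floor, as for Rpl39l, and dim ones, as for Rpl10l, limit what can be read.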
